A study of Mus musculus with 4 samples.

Results

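Cells make cysteine from methionine through the methionine cycle and transsulfuration. In the cycle, methyl transfer leaves S-adenosylhomocysteine, which is split to homocysteine, and homocysteine is either remethylated to methionine or joined to serine to give cystathionine. Cystathionase, the product of Cth, splits cystathionine and releases cysteine, which feeds glutathione, taurine and hydrogen sulfide. Enzymes of the mitochondria then oxidise sulfide to thiosulfate and sulfate.

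The genes described here are 10 enzymes of this route: Cth, Cbs, Mpst, Tst, Sqor, Ethe1, Suox, Mtr, Mtrr and Ahcy. They were taken by name from the 18193 genes that the platform annotation names on a mouse expression array. The 10 genes had 13 probe sets, with 2 each for Cbs, Sqor and Mtr and 1 for each other gene. The series title names cystathionase, Myc and Miz-1 in melanocyte senescence.

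The cells were melan-a, an immortal line of mouse melanocytes, and 4 cultures gave 1 array each. All 4 carried the form labelled Hmhi, which the labels do not spell out, and had been grown with 200 nM TPA, a phorbol ester, and 12 nM cholera toxin. They were then kept for 14 days in medium with 10% dialyzed serum, from which dialysis removes small molecules such as free amino acids. The groups were Hmhi-MYC-TA cells given EGF at 100 ng/ml, Hmhi-Miz1 kd cells (pS-Miz1 in the sample's source name) with the same EGF, Hmhi cells with EGF, and Hmhi cells starved without it. The labels do not explain MYC-TA, or say whether a line is 1 clone. With 1 array per condition there was no replicate spread, so no difference was tested and every value compares arrays, not conditions. In bulk RNA, fewer cells of a type and less RNA per cell cannot be told apart.

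Levels are given as log2 signals, and the median over non-control probe sets was 6.66 on each array. As the error of a difference there is a technical SD alone, that between probe sets which read the same gene. It was 0.25 for MYC-TA minus Hmhi EGF, 0.22 for the array labelled Miz1 kd minus Hmhi EGF and 0.32 for Hmhi EGF minus Hmhi starved. Zbtb17, which encodes Miz-1, read 8.71 in MYC-TA, 9.08 in the array labelled Miz1 kd, 8.72 in Hmhi EGF and 8.73 in Hmhi starved. The knockdown label is therefore not borne out by the target's transcript, and directions for that array belong to the array as labelled. Myc read 9.78, 10.79, 10.60 and 10.64 in the same order. On this 1 probe set it was lowest in MYC-TA, at -0.82 against Hmhi EGF. A raised Myc transcript is thus not shown on the MYC-TA array, and whether the set reads a construct's transcript was not tested. Of 8 melanocyte markers, 6 or 7 stood at or above the array median on each array, while Tyr lay below the median on all 4. Sox10 was the steadiest of them, between 12.96 and 13.37, and others differed more, such as Dct at 11.08 in MYC-TA, 9.19 in the array labelled Miz1 kd, 11.26 in Hmhi EGF and 9.79 in Hmhi starved. Tyrp1 ranged over 13.05 to 14.09, Mlana over 11.32 to 12.78 and Pmel over 7.11 to 8.62. Of 6 fibroblast markers, 2 or 3 reached the median, and their log2 levels summed to 47.0 in MYC-TA, 41.5 in the array labelled Miz1 kd, 43.4 in Hmhi EGF and 43.6 in Hmhi starved. Of 4 markers of keratinocytes and other epithelium, 2 reached the median on each array, Krt5 and Epcam. Epcam read between 8.06 and 8.95, and Krt14 and Cdh1 lay below the median. Ptprc, which marks leukocytes, read between 4.09 and 4.58, and 1 or 2 of the 4 leukocyte and macrophage markers reached the median. Csf1r and Cd68 of that list moved in opposite directions between the EGF arrays and Hmhi starved. Csf1r was at most 6.87 on the 3 EGF arrays and 9.41 in Hmhi starved, and Cd68 lay between 8.05 and 8.28 on the EGF arrays and at 6.55 in Hmhi starved. The part of other cells in the enzyme values was not tested. The 3′ minus 5′ signal of the beta-actin control sets, a measure of RNA integrity, was 0.72, 0.74, 0.87 and 0.66 in the same order. For the Gapdh control sets it was -0.24, -0.40, -0.31 and -0.22. The 18S sets gave -0.52, -0.08, -0.48 and -0.65, with the array labelled Miz1 kd apart from the others.

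Cth was highest in MYC-TA and lowest in Hmhi starved. Its probe set read 8.31 in MYC-TA, 6.20 in the array labelled Miz1 kd, 5.18 in Hmhi EGF and 4.34 in Hmhi starved. Only the MYC-TA level was above the array median. Among non-control probe sets, Cth stood at percentile 69.8 in MYC-TA, 42.6 in the array labelled Miz1 kd, 25.6 in Hmhi EGF and 12.6 in Hmhi starved. At the lower 3 levels background takes a large part of the signal, so the size of each fold below is limited.

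**Figure D1:**
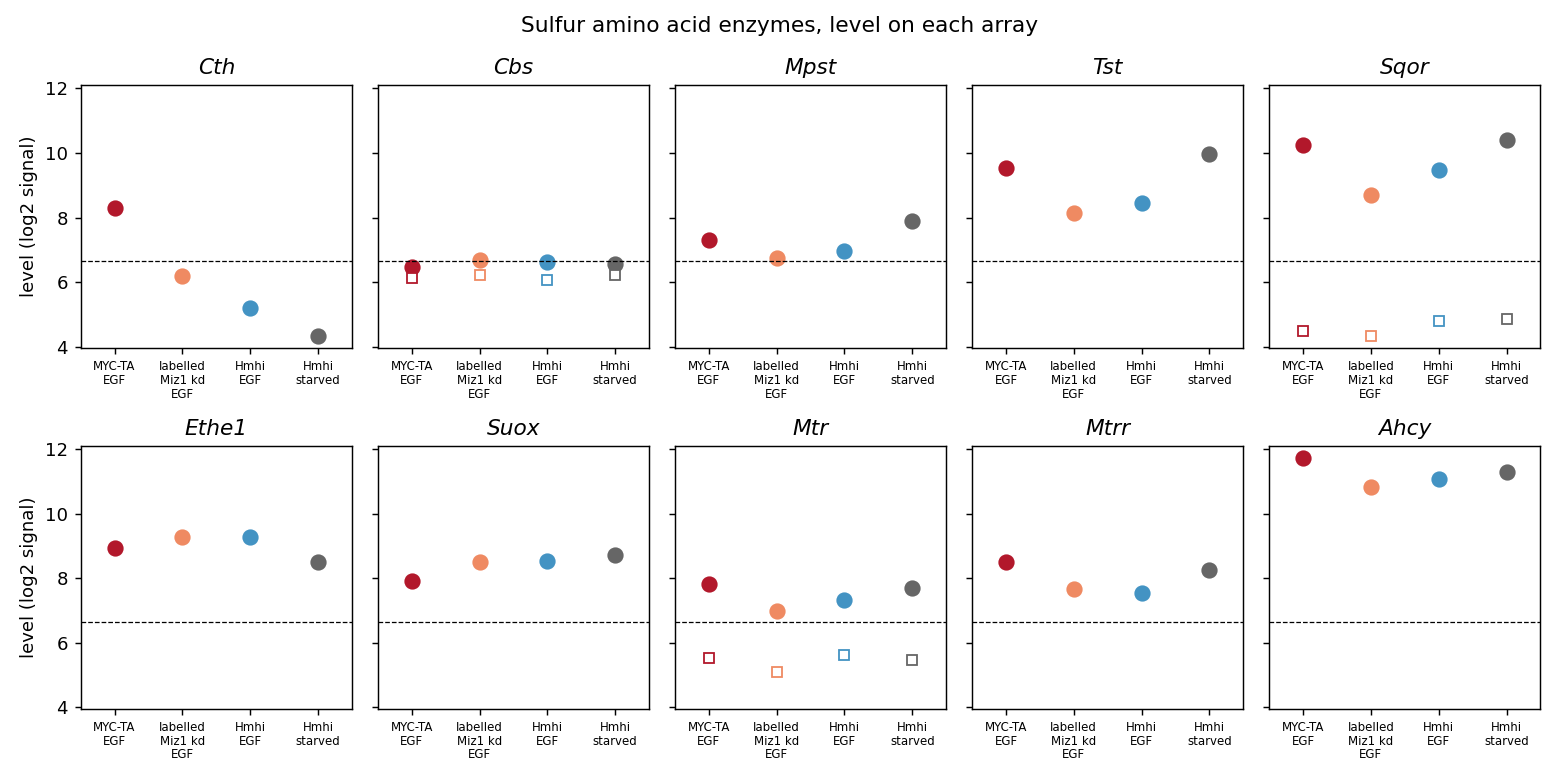
Level of each enzyme gene (log2 signal) on the 4 arrays, with MYC-TA EGF at the left and Hmhi starved at the right of each panel. Filled circles are the brighter probe set, open squares the dimmer set of Cbs, Sqor and Mtr, and the dashed line is the array median of 6.66. Cth reaches 8.31 in MYC-TA and lies under the line on the other 3 arrays, and Cbs stays near the line. Mpst, Tst, Sqor, Mtr and Ahcy are lowest in the array labelled Miz1 kd.

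The log2 difference of Cth for MYC-TA minus Hmhi EGF was 3.12, which is 8.71-fold and 12.3 times the technical SD. It ranked 1 from the top among the 11534 genes of that comparison that passed the level filter, which asks that the brighter array be at or above its median. Against the array labelled Miz1 kd the MYC-TA level was higher by 2.10, or 4.30-fold, at rank 116 of 11613 genes. Against Hmhi starved it was higher by 3.96, at rank 13 of 11598. In all 3 comparisons Cth passed the filter through its MYC-TA level alone. The ranks and the SD multiple thus rest on a second level below the median, and are no independent support. Comparisons that share an array also share that array's error, so these 3 differences are not separate observations of the MYC-TA level.

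The remaining Cth differences lie between levels that are all below the median, and they failed the level filter. The array labelled Miz1 kd exceeded Hmhi EGF by 1.02, or 2.03-fold, and Hmhi EGF exceeded Hmhi starved by 0.84, or 1.79-fold. For the array labelled Miz1 kd minus Hmhi starved the difference was 1.86. With a single probe set for Cth, no other set could be read beside it.

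By distance between the 4 levels after subtracting each gene's mean, the 5 genes nearest to Cth among 11219 were S100a6, Fut9, Fetub, Msln and Mamdc2. S100a6, a calcium-binding protein, was at a distance of 1.02 and read 6.97 in MYC-TA, 5.15 in the array labelled Miz1 kd, 4.12 in Hmhi EGF and 4.34 in Hmhi starved. Fut9, a fucosyltransferase, was at 1.04 and read 7.91, 4.84, 5.19 and 4.11 in that order. Fetub, a secreted protein called fetuin-B, was at 1.31 and read 8.72, 5.45, 5.71 and 5.39. Msln, which encodes mesothelin, was at 1.39 and read 8.29, 7.76, 6.60 and 6.09, and Mamdc2 was at 1.42 and read 7.98, 5.67, 6.09 and 5.39. Of the 5, Msln was ordered over the 4 arrays as Cth was, while in S100a6 Hmhi EGF read lower than Hmhi starved. In Fut9, Fetub and Mamdc2 the array labelled Miz1 kd read lower than Hmhi EGF. This likeness describes 4 arrays, and each gene lies below the array median on some of them.

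Cbs, cystathionine beta-synthase, makes the substrate of cystathionase and showed no such differences. Its brighter set read 6.46 in MYC-TA, 6.68 in the array labelled Miz1 kd, 6.61 in Hmhi EGF and 6.55 in Hmhi starved. On its dimmer set the 4 levels were 6.12, 6.21, 6.06 and 6.21. The 4 levels of the brighter set span 0.22 and those of the dimmer set 0.16, both no more than the technical SDs above. The brighter set lies near the array median, just above it in the array labelled Miz1 kd and below it on the others. The dimmer set lies below the median on every array. At such levels background limits what a difference could show.

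The enzymes of mitochondrial sulfide oxidation and sulfur transfer did not share 1 order over the arrays. Between Hmhi EGF and Hmhi starved, Sqor (on its brighter set), Tst and Mpst were lower with EGF by more than the technical SD. Ethe1 was higher by more than that SD, and Suox differed by less. Sqor, the sulfide quinone oxidoreductase of the inner mitochondrial membrane, read 10.24 in MYC-TA, 8.71 in the array labelled Miz1 kd, 9.47 in Hmhi EGF and 10.41 in Hmhi starved. It was thus highest in Hmhi starved and MYC-TA, and lowest in the array labelled Miz1 kd. Its log2 differences were 0.77 for MYC-TA minus Hmhi EGF, -0.76 for the array labelled Miz1 kd minus Hmhi EGF and -0.94 for Hmhi EGF minus Hmhi starved. A second Sqor set read 4.48, 4.32, 4.79 and 4.86, far below the median on every array, and its MYC-TA minus Hmhi EGF difference was -0.32. The Sqor values rest on the brighter set. All 3 comparisons use the Hmhi EGF array and share its error, for Sqor and for each gene below.

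Tst, thiosulfate sulfurtransferase or rhodanese, read 9.52 in MYC-TA, 8.15 in the array labelled Miz1 kd, 8.46 in Hmhi EGF and 9.98 in Hmhi starved. Its order over the arrays was that of Sqor. The differences were 1.06 for MYC-TA minus Hmhi EGF, -0.31 for the array labelled Miz1 kd minus Hmhi EGF and -1.52 for Hmhi EGF minus Hmhi starved. Mpst, which takes sulfur from mercaptopyruvate, a product of cysteine, read 7.32, 6.75, 6.98 and 7.91 in the same array order. Its differences were smaller, at 0.34, -0.22 and -0.93 for the same comparisons. Tst and Mpst are neighbours on chromosome 15 with no other protein-coding gene between them in the GRCm38.p6 annotation. The fibroblast markers did not share 1 order. Dcn, like Sqor and Tst, was high in MYC-TA and Hmhi starved, at 11.56 and 11.50, and lowest in the array labelled Miz1 kd, at 9.45. Pdgfra was instead highest in the array labelled Miz1 kd, at 8.24, and lowest in Hmhi starved, at 7.40, and Col3a1 read 9.69 in MYC-TA, 6.25 in the array labelled Miz1 kd, 7.21 in Hmhi EGF and 6.59 in Hmhi starved. Col1a1, Col1a2 and Lum lay between 4.97 and 6.97.

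Ethe1, the persulfide dioxygenase that acts after Sqor, ran the other way with EGF. It read 8.95 in MYC-TA, 9.29 in the array labelled Miz1 kd, 9.29 in Hmhi EGF and 8.50 in Hmhi starved. Hmhi EGF was higher than Hmhi starved by 0.80, and MYC-TA differed from Hmhi EGF by -0.34. Suox, the molybdenum enzyme that turns sulfite into sulfate, read 7.90 in MYC-TA, 8.50 in the array labelled Miz1 kd, 8.52 in Hmhi EGF and 8.71 in Hmhi starved. MYC-TA was the low array for Suox, with differences of -0.62 from Hmhi EGF and -0.81 from Hmhi starved, while the other 3 arrays lay between 8.50 and 8.71.

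Mtrr, Mtr and Ahcy, the methionine cycle enzymes among the 10, read highest in MYC-TA, for Mtr on its brighter set. MYC-TA minus Hmhi starved was 0.24 for Mtrr, 0.12 for Mtr and 0.44 for Ahcy. The Mtrr and Mtr values lie within that comparison's technical SD of 0.31. The Ahcy value lies beyond it, as did those of 54.2% of all genes that passed. That SD holds no spread between cultures, so MYC-TA and Hmhi starved are not told apart for any of them. Mtrr, which reactivates methionine synthase, read 8.50 in MYC-TA, 7.68 in the array labelled Miz1 kd, 7.55 in Hmhi EGF and 8.25 in Hmhi starved. Mtr, methionine synthase itself, read 7.81, 6.97, 7.33 and 7.69 in that order on that set. Ahcy, which splits S-adenosylhomocysteine, was the brightest of the 10 and read 11.74, 10.84, 11.07 and 11.29.

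For MYC-TA minus Hmhi EGF the differences were 0.95 for Mtrr, 0.48 for Mtr and 0.67 for Ahcy. Those for Hmhi EGF minus Hmhi starved were -0.71, -0.36 and -0.23, of which the Ahcy value is within the technical SD of 0.32. For the array labelled Miz1 kd minus Hmhi EGF they were 0.13, -0.36 and -0.23. The dimmer Mtr set, between 5.09 and 5.61, gave -0.10 for MYC-TA minus Hmhi EGF and 0.13 for Hmhi EGF minus Hmhi starved. In both comparisons the sign for Mtr depends on the set read.

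**Figure D2:**
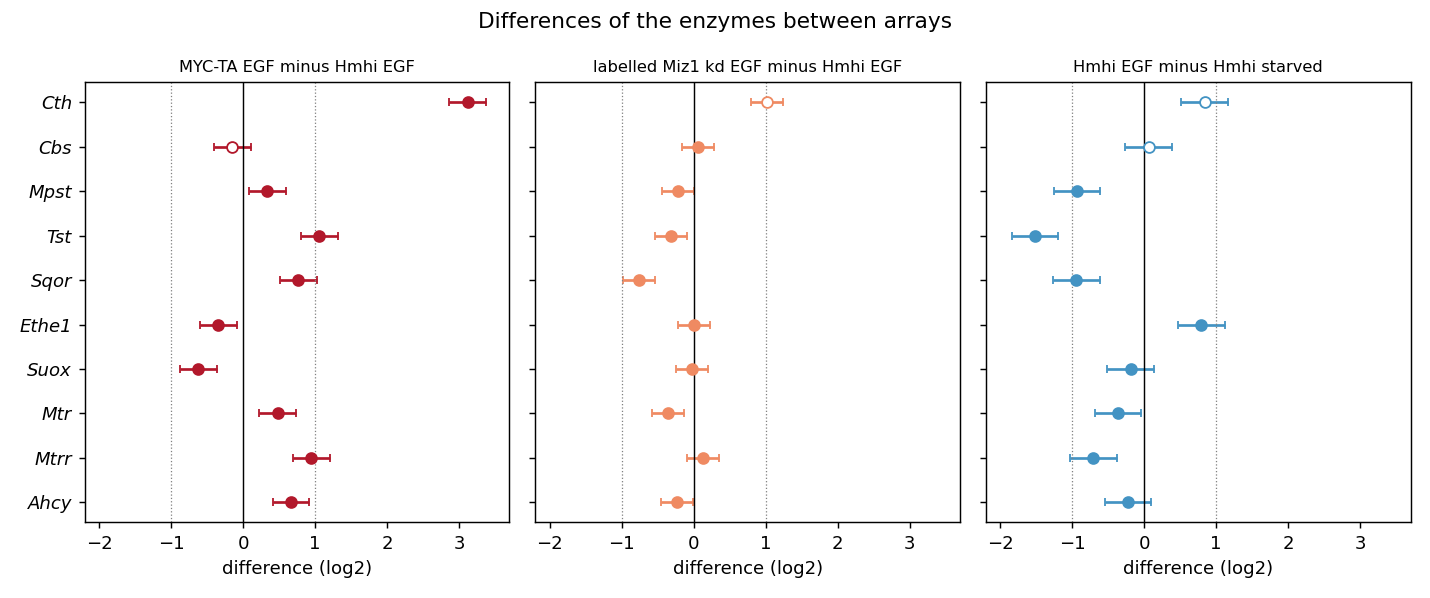
Log2 difference of each enzyme gene between arrays, for MYC-TA minus Hmhi EGF, the array labelled Miz1 kd minus Hmhi EGF, and Hmhi EGF minus Hmhi starved. Bars are the technical SD between probe sets of a gene (0.25, 0.22 and 0.32), dotted lines mark 2-fold, and open circles failed the level filter. Cth at 3.12 and Tst at 1.06 pass the upper line in the MYC-TA comparison, and Tst at -1.52 passes the lower line in the EGF comparison.

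Between MYC-TA and Hmhi EGF, 9 of the 10 genes passed the level filter, all but Cbs. Cth and Tst were at least 2-fold higher, as were 1.30% of all genes that passed. No enzyme was at least 2-fold lower, against 1.65% of genes. At 1.5-fold, Sqor, Mtrr and Ahcy were also higher and Suox lower, which made 6 genes against a background of 14.3% of genes. Differences were larger than the technical SD for all 9 that passed, against 46.9% of genes that passed. The median over the 10, with Cbs that failed the filter included, was 0.58, beside 0.045 over all genes that passed. Tst stood at rank 128, Mtrr at 184, Sqor at 384 and Ahcy at 600 of 11534 from the top, and Suox at 711 from the bottom. The enzymes were chosen with earlier results of these data known. Their contrasts with all genes, here and in the comparisons below, are therefore descriptions and not independent support.

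**Figure D3:**
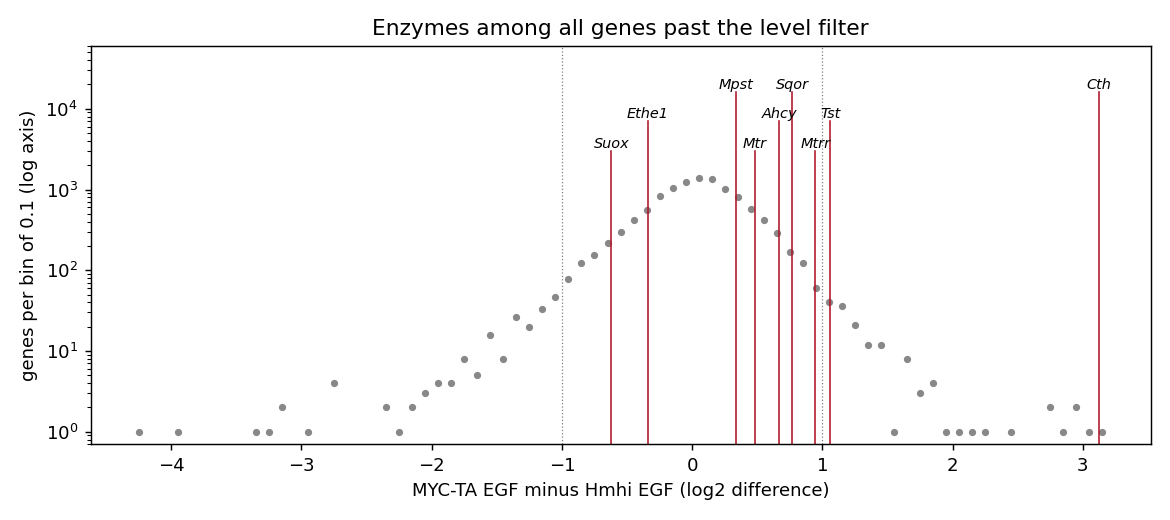
Number of genes (log axis) in each 0.1-wide bin of the log2 difference MYC-TA EGF minus Hmhi EGF, over the 11534 genes past the level filter. Vertical lines mark the 9 enzyme genes that passed and dotted lines 2-fold. Cth, at 3.12, lies at the upper end of all genes, and Ethe1 and Suox lie on the lower side, at -0.34 and -0.62.

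For the array labelled Miz1 kd minus Hmhi EGF, 9 of the 10 passed the filter, all but Cth, and none was 2-fold apart. The background was 0.290% of genes 2-fold or more higher and 2.50% lower. Sqor, at -0.76, was the single enzyme beyond 1.5-fold among those that passed, against 9.14% of genes. Differences exceeded the technical SD for 5 of the 9 that passed, against 44.6% of genes that passed. The median over the 10, with Cth that failed the filter included, was -0.12, beside 0.018 over all genes that passed.

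Between Hmhi EGF and Hmhi starved, 8 of the 10 passed, all but Cth and Cbs, and Tst was at least 2-fold lower. The background was 7.98% of genes 2-fold or more higher and 4.96% lower. At 1.5-fold, Mpst, Sqor and Mtrr were also lower and Ethe1 higher, making 5 genes against 30.0% of genes. Of the 8 that passed, 6 had differences beyond the technical SD, against 53.1% of genes that passed. The median over the 10, with Cth and Cbs that failed the filter included, was -0.29, beside 0.006 over all genes that passed.

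The comparison of MYC-TA with the array labelled Miz1 kd, both under EGF, does not use the Hmhi EGF array. It reuses the values and errors of both arrays compared above, so its differences are not separate observations. All 10 genes passed the filter, and MYC-TA was at least 2-fold higher for Cth, Sqor and Tst, by 2.10, 1.53 and 1.37. The Sqor value rests on its brighter set, and was 0.85 with the mean of its sets and 0.16 on the dimmer set alone, where the count of enzymes at least 2-fold apart was 2. The background was 6.72% of genes 2-fold or more higher and 4.26% lower. Ahcy, Mtr and Mtrr were higher by 0.90, 0.84 and 0.82, and Suox differed by -0.60, which made 7 genes beyond 1.5-fold against 29.4% of genes. The technical SD of this comparison was 0.41, larger than for either array against Hmhi EGF.

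Set against Hmhi starved, the EGF arrays differed from each other. In MYC-TA 9 of the 10 passed, all but Cbs, and Cth alone was at least 2-fold higher, against 8.33% of genes higher and 4.91% lower. Mpst, at -0.59, and Suox, at -0.81, made 3 genes beyond 1.5-fold, against 29.5% of genes, and Sqor stood within the technical SD of 0.31 at -0.17. In the array labelled Miz1 kd 9 of the 10 passed, all but Cth, and Tst, Sqor and Mpst were at least 2-fold lower, at -1.82, -1.70 and -1.15. Sqor was at -0.55 there on its dimmer set, which left 2 enzymes. In this comparison the background was 7.45% of genes 2-fold or more higher and 7.42% lower. With Mtr at -0.72 and Ethe1 at 0.80, 5 genes lay beyond 1.5-fold, against 35.0% of genes.

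Of 60 other genes of sulfur amino acid metabolism, listed by role, 55 had a named probe set, and the others were not analysed here. For MYC-TA minus Hmhi EGF, 48 passed the level filter and Psat1 alone was at least 2-fold apart, where 1.30% of all genes were higher and 1.65% lower. Psat1, which makes phosphoserine on the way to the serine used by Cbs, read 11.90 in MYC-TA, 10.73 in the array labelled Miz1 kd, 10.73 in Hmhi EGF and 11.81 in Hmhi starved. MYC-TA exceeded Hmhi EGF by 1.17 and 1.07 on its sets, and the Hmhi EGF minus Hmhi starved differences were -1.08 and -0.91. Its high arrays were thus MYC-TA and Hmhi starved, as for Tst and Sqor.

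The 6 genes of the methionine salvage and polyamine branch, which recycles methylthioadenosine, had a median of 0.44 for MYC-TA minus Hmhi EGF, with 5 of 6 positive, against 55.1% of all genes that passed, and none 2-fold apart. Srm, spermidine synthase, was the largest at 0.81, and Mtap, methylthioadenosine phosphorylase, was at 0.54. The medians of the other lists in that comparison were 0.17 for the methionine cycle and transmethylation, 0.25 for cysteine use and taurine synthesis, 0.17 for molybdenum cofactor and sulfur transfer, 0.11 for cobalamin handling and 0.016 for serine supply. Among the cysteine users, Gclc and Gclm, the subunits of the enzyme that starts glutathione synthesis, lay on opposite sides, at -0.57 and 0.30. Mmachc, which prepares cobalamin for methionine synthase, read 8.37 in MYC-TA, 6.83 in the array labelled Miz1 kd, 7.39 in Hmhi EGF and 8.52 in Hmhi starved. Its difference for MYC-TA minus Hmhi EGF was 0.97, and it was at least 2-fold higher in MYC-TA than in the array labelled Miz1 kd, by 1.54.

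**Figure D4:**
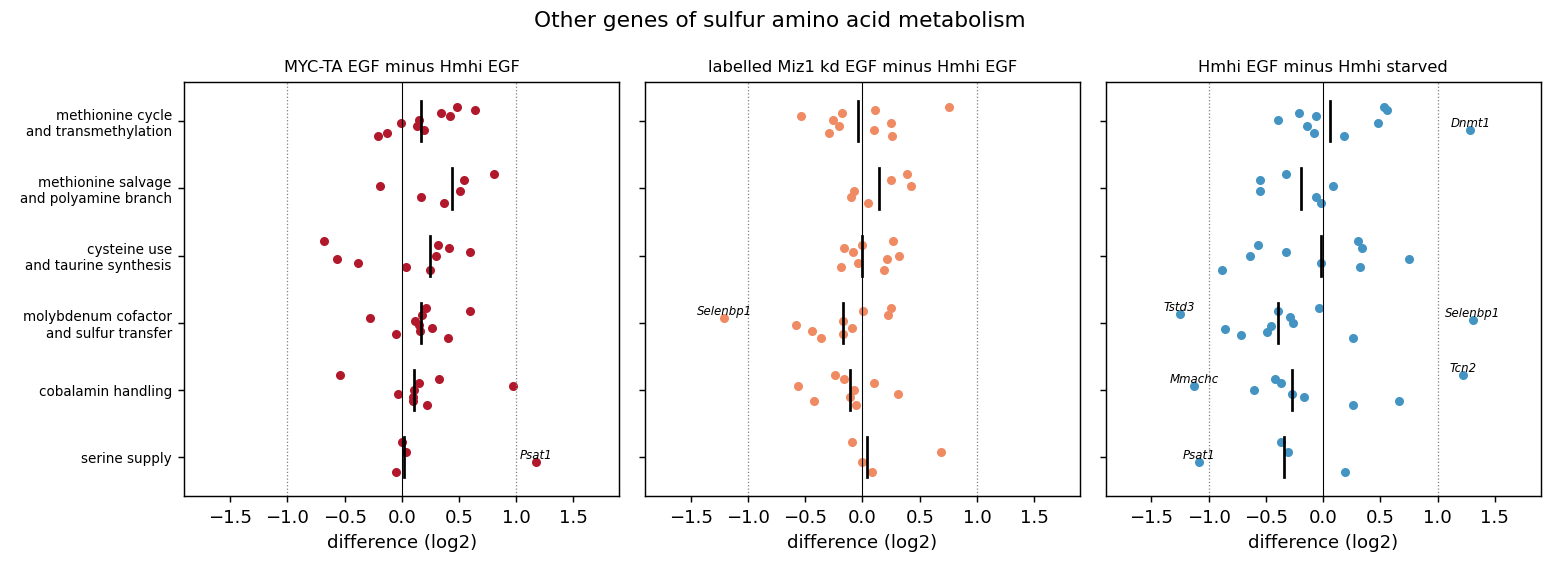
Log2 differences of the other genes of sulfur amino acid metabolism that passed the level filter, by list, for MYC-TA minus Hmhi EGF, the array labelled Miz1 kd minus Hmhi EGF, and Hmhi EGF minus Hmhi starved. Each point is a gene, black bars are list medians, dotted lines mark 2-fold and genes beyond them are named. Psat1 lies at 1.17 in the MYC-TA comparison and at -1.08 in the EGF comparison, and Selenbp1 at -1.21 in the comparison of the array labelled Miz1 kd.

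Between Hmhi EGF and Hmhi starved, 49 of the 55 passed, with Selenbp1, Dnmt1 and Tcn2 at least 2-fold higher and Tstd3, Mmachc and Psat1 at least 2-fold lower. These counts of 3 and 3 stand beside backgrounds of 7.98% of all genes higher and 4.96% lower. Dnmt1, the maintenance DNA methyltransferase, was higher by 0.88 to 1.29 over its 3 sets, and Tcn2, the cobalamin carrier transcobalamin, by 1.12 to 1.47 over its 5. Selenbp1, a methanethiol oxidase, was higher by 1.31 and 1.05 with EGF, and in the array labelled Miz1 kd it differed from Hmhi EGF by -1.21 and -1.10. A near-identical mouse paralog may share its probes, so its values are uncertain. Selenbp1 was the 1 gene of 48 beyond 2-fold for the array labelled Miz1 kd minus Hmhi EGF, where 0.290% of all genes were higher and 2.50% lower. The molybdenum cofactor and sulfur transfer list had a median of -0.39 for Hmhi EGF minus Hmhi starved, with 9 of 11 genes negative against 49.4% of all genes that passed, and the cobalamin list had -0.27. Tstd3, named for a thiosulfate sulfurtransferase-like domain, read 6.36 in MYC-TA, 6.27 in the array labelled Miz1 kd, 6.35 in Hmhi EGF and 7.60 in Hmhi starved, so the 3 EGF arrays were alike and low.

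Against Hmhi starved, 49 of the 55 passed for MYC-TA, with Dnmt1, Shmt1, Selenbp1 and Shmt2 at least 2-fold higher, by 1.48, 1.20, 1.03 and 1.01, and Tstd3 lower, at -1.24. That is 4 higher and 1 lower, with 8.33% of all genes higher and 4.91% lower. Shmt1 and Shmt2 are the cytosolic and mitochondrial serine hydroxymethyltransferases, which load folate with the carbon used in remethylation. The other Shmt1 sets gave 1.16 to 1.42 and the other Shmt2 sets 0.40 to 0.90. For the array labelled Miz1 kd, Dnmt1 and Shmt2 were 2-fold or more higher than in Hmhi starved, by 1.39 and 1.29. Mmachc, Tstd3, Psat1 and Mocs3 were 2-fold or more lower there, at -1.69, -1.33, -1.08 and -1.04, where a dimmer Mocs3 set below the median gave 0.003. These 2 higher and 4 lower of 49 stand beside 7.45% of all genes higher and 7.42% lower. Mocs3 activates the sulfur carrier used to build the molybdenum cofactor of Suox.

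Promoter sequences from RefSeq (GRCm38.p6) were matched for 8 of the 10 genes, over 12 annotated starts, and are not shown for Cth and Tst. Each window holds 250 bases before a start and 50 after it, and 4 motifs were searched on both strands. The E-box CACGTG, which MYC binds with MAX, stood in the Cbs window alone among the 8 genes, and in 7.15% of 32851 promoter windows. TGATGNAA, the core of the element bound by ATF4 with C/EBP proteins, stood in the Sqor window and in 3.97% of all windows. TGACNNNGC, the core of the antioxidant response element, stood in a window of Mpst, 12 bases before the second of its 3 annotated starts, and in 12.4% of all windows. The published Miz-1 motif was in none of the 12 windows and in 0.00304% of all windows. All the motif hits are matches of letters and show no binding.

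The stretches below are those of the 3 windows that held a motif, shown so that each match can be read in its surroundings. Capitals mark the motif, and each runs 5′ to 3′ along the gene's strand. The Cbs stretch, chr17:31637234-31637455 on the minus strand, leaves out bases inside the annotated gene, and its E-box begins 229 bases before the annotated start. The Mpst stretch, chr15:78406778-78406800, and the Sqor stretch, chr2:122771559-122771588, are on the plus strand and lie within the annotated genes, upstream of the start used, and the Sqor motif is on the opposite strand, 143 bases before its start.
Cbs: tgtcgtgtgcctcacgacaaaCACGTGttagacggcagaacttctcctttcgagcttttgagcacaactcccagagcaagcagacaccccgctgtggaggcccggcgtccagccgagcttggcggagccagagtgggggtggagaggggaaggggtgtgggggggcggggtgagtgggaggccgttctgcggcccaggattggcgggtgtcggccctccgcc
Mpst: tggggagggggTGACATGGCgga
Sqor: cagtttttcctTTTCATCAtttctctgtgc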

How the data were processed

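Per the labels' protocols, 100 ng of total RNA gave biotin-labelled cRNA, and 1 array was used for each of 4 conditions. The deposited table holds 45101 probe sets with values between 2.94 and 15.12, read here as log2 signals. Summarization, normalization and log base are not given in the sources used here. The sorted columns lie within 0.004 of each other, so the authors had made the arrays comparable, and a global shift is not visible. GEO's platform annotation gave 1 symbol for 34945 sets, several for 932 and none for 9160, besides 64 control sets. RefSeq identifiers matched 34754 sets and updated 0 symbols. Each gene was read from its brightest set by mean over the 4 arrays. Genes passed a comparison where the brighter array was at or above its median, and 2-fold was the threshold.

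The technical SD was pooled within genes over sets past that filter. It holds no spread between cultures, RNA samples or hybridizations. All 6 pairs of arrays were compared. The calling steps were tested on simulated arrays whose noise was set by the technical SD. Such arrays check the steps only and do not show whether a difference would repeat in other cultures. The number of arrays limits the precision, and no test could be run.

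All 10 enzymes are named. Other genes of the pathway lists are named where at least 2-fold apart and past the filter, at most 4 by list and comparison, and the 5 genes nearest to Cth by distance. Srm, Mtap, Gclc and Gclm were named after their values were seen, as were the cell type markers given singly. The members and lists were chosen with earlier results of these data known. Alternatives were other normalizations, filters, probe set rules and a 1.5-fold threshold. Python 3.11.15, pandas 2.3.3, numpy 2.4.6, statsmodels 0.14.6 and matplotlib 3.10.9 were used.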

Additional observations from a re-analysis of the deposited data

How the results depend on the processing

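No paired analysis was possible because there was 1 array per condition, and no array could be left out of a comparison of 2 arrays. A common median and quantile normalization left the enzyme differences as they were, in arrays already made alike. Enzymes with 1 probe set also keep their value under other probe set rules. The count of enzymes at least 2-fold apart moved with the filter, the fold and, through Sqor, the probe set rule. At 1.5-fold it was 6 against 2 at 2-fold for MYC-TA minus Hmhi EGF, 1 against 0 for the array labelled Miz1 kd minus Hmhi EGF, and 5 against 1 for Hmhi EGF minus Hmhi starved. It was 7 against 3 for MYC-TA minus the array labelled Miz1 kd, and against Hmhi starved it was 3 against 1 for MYC-TA and 5 against 3 for the array labelled Miz1 kd. With no level filter, Cth entered for the array labelled Miz1 kd minus Hmhi EGF, a count of 1, and for the same array minus Hmhi starved, a count of 4 against 3. With the filter at the 75th percentile, which Cth does not reach on any array, the counts were 1 for MYC-TA minus Hmhi EGF and 0 for MYC-TA minus Hmhi starved, and 2 against 3 for MYC-TA minus the array labelled Miz1 kd, without Cth, and for the array labelled Miz1 kd minus Hmhi starved, without Mpst. Sqor left the 2-fold count of MYC-TA minus the array labelled Miz1 kd with both probe set rules (1.53 became 0.85 with the mean of its sets and 0.16 with plain _at sets), and that of the array labelled Miz1 kd minus Hmhi starved with plain _at sets (-1.70 became -0.55), which made each count 2 against 3. Of 294 enzyme differences recomputed under other normalizations and probe set rules, 284 moved by less than the technical SD and 10 by more, and 0 of those at least 2-fold apart changed sign. Among the smaller differences 3 did, of Sqor, Ethe1 and Cbs. Of the 10, all but 1 were of Sqor, whose dimmer set is far below the median. With plain _at sets, which leave that dimmer set alone, the Sqor difference for MYC-TA minus Hmhi EGF was -0.32 in place of 0.77. The other was Mtr for the same comparison, at 0.19 with the mean of its sets. Many of the 284 could not have moved, so that count is no measure of how steady the differences are.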
